A study of Rattus norvegicus with 18 samples.

Results

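The comparison described here set the prelimbic cortex (PL) of rats trained 6 d earlier against the PL of untrained rats, across all genes. It rests on 6 of the series' 18 RNA sequencing libraries, chosen by their titles: PL-Naive, 3 pools, and PL-Train-6d, 3 pools. All animals were adult Long-Evans rats, an outbred strain, and each pool combined RNA of 5 rats. Naive rats stayed in the home cage. Trained rats underwent inhibitory avoidance, in which a foot shock received in a place leads the animal to avoid that place, and were killed 6 d later. The 3 PL pools killed 1 h after training entered the fit only to estimate the spread, or served as an independent reference where stated. The series describes the pools of a group as independent. The p-values therefore measure the spread between pools, and pooling hides the spread between the 5 rats of a pool. No RNA from home-cage rats handled or shocked without learning was compared here, so training cannot be told apart from the shock and the handling that came with it.

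As background, the prelimbic area is a part of the medial prefrontal cortex known for its role in the expression of learned fear and avoidance. Memory consolidation begins with a brief wave of transcription in which activity switches on immediate early genes, many of them transcription factors. Over the following days memories that first need the hippocampus come to depend more on the cortex. The question asked of the samples at 6 d was whether transcript levels in PL remained different from those of untrained rats once that wave had passed.

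Genes are identified in the deposited tables by Ensembl IDs alone, and the reference table at hand matched 0 of the 32662 IDs. No gene name was therefore at hand. Only 2 IDs with a higher and 2 with a lower estimate at 6 d are given, what each gene encodes is not stated, and neither cortical markers nor markers of glia, vessels or blood were checked. The regional label was checked over all genes instead. With all 18 libraries scaled together, the 6 libraries lay at most 0.242 apart from each other and 0.636 to 0.694 from the 9 libraries of the dorsal hippocampus (dHC), as the root mean square difference over genes in log2 CPM, the count of a gene relative to the scaled library total. Gene counts per library were 8145006 to 9215695 in the naive pools and 7463875 to 9081537 in the 6 d pools. The share of reads outside gene models was 11.2% to 12.6% in naive and 12.2% to 13.6% in 6 d pools. Pools of 1 group were not copies of each other, since the chi-square statistic of their counts, divided by its degrees of freedom, was 1.98 to 4.98 over the 6 pairs.

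No gene was called different between 6 d and naive. Of 14318 genes tested, 0 (0%) had an edgeR adjusted p under 0.05, and the smallest edgeR adjusted p was 0.999. An unadjusted p under 0.05 was found for 497 genes (3.47%), 287 of them with a higher and 210 with a lower estimate at 6 d, where uniform p-values would give 716. DESeq2 and limma voom also called 0 genes, with 218 and 494 at an unadjusted p under 0.05. The number at that level was 1565 without 6 d pool 1 and 922 without naive pool 3, with 0 and 1 genes called. Libraries of the groups did not overlap for 625 genes higher at 6 d (4.37%) and 566 lower (3.95%). The median absolute log2 fold change over all genes was 0.08 and its median standard error was 0.11, so that the typical estimate was smaller than its error.

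The data did bound how large a lasting change could be. The 95% interval of the 6 d change, 6 d minus naive, had a median half-width of 0.23 on the log2 scale. For 73.3% of the genes it lay between −0.5 and 0.5, and for 93.4% between −1 and 1, which is a 2-fold change. A direct test of the bound was made of 2 one-sided tests per gene with Benjamini-Hochberg adjustment over all genes. It placed 10896 genes (76.1%) inside 0.5 and 13694 genes (95.6%) inside 1. Taken at an adjusted p under 0.05, it was less strict than the 95% interval, so its larger shares do not mean tighter bounds. Estimates beyond 2-fold occurred for 24 genes, 15 higher and 9 lower, and all 24 had a mean under 5 CPM over the 6 libraries. The extreme estimates were 1.39 and −1.46.

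How tight the bound was followed the number of reads. For the 2381 genes of at least 100 CPM the median half-width was 0.13, and 99.8% of the intervals stayed inside 0.5. For 5386 genes between 20 and 100 CPM it was 0.18, with 99.2% inside 0.5. Among 3638 genes between 5 and 20 CPM, 73.5% stayed inside 0.5 and 99.8% inside 1. Among 2769 genes between 1 and 5 CPM only 3.58% stayed inside 0.5, though 70.9% stayed inside 1. For the 144 genes under 1 CPM the median half-width was 0.99, and 6.25% of the intervals stayed inside 1, so that a 2-fold change was mostly not excluded at this depth. The direct test, less strict than the interval, placed 22.9% of the 144 inside 1. Of the 950 genes whose interval reached past 1, 941 had a mean under 5 CPM.

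**Figure D1:**
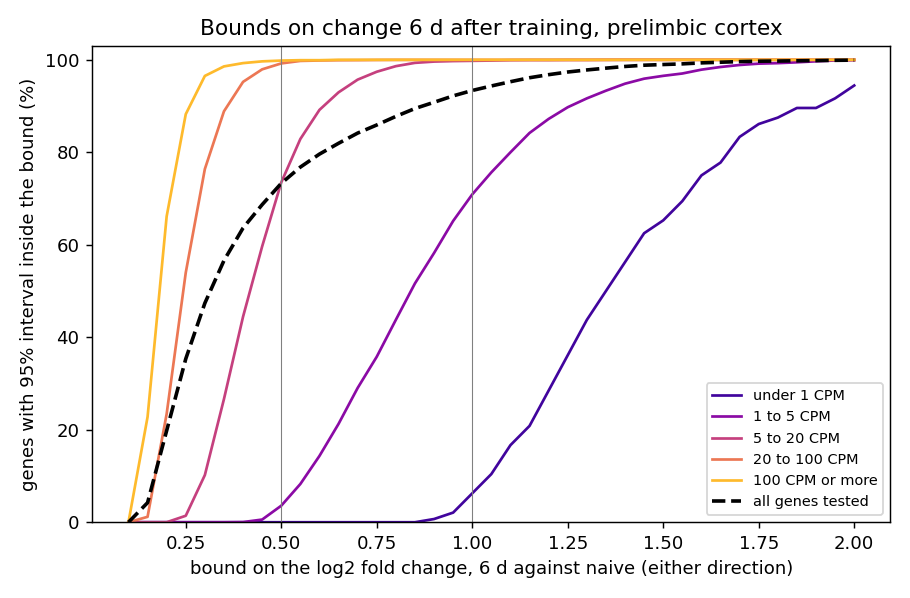
Share of genes (y axis, %) whose 95% interval of the log2 fold change, 6 d against naive PL, lies inside a bound of the size on the x axis in either direction, with a line for each range of mean level in CPM and a dashed line for all 14318 genes tested. The grey lines mark bounds of 0.5 and 1, where the dashed line stands at 73.3% and 93.4%, and the lines of genes under 5 CPM lie far to the right of the others.

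The same bounds were read for the genes that had responded at 1 h. In the fit of the 9 PL libraries, 112 genes were called higher (0.782%) and 94 lower (0.657%) at 1 h than in naive PL. The median 1 h log2 fold change of the 112 was 0.70. At 6 d, 78 of the 112 had an interval inside 0.5 and 105 inside 1, and their estimates ran from −0.52 to 1.03. Of the 94 lowered genes, 83 had an interval inside 0.5 and 92 inside 1, with estimates between −0.68 and 0.22. Over all genes tested these shares were 73.3% and 93.4%. Of the 112 and of the 94 genes, 9 each had an edgeR unadjusted p under 0.05 at 6 d, and 0 were called. Over all 14318 genes 497 (3.47%) had such a p. The 1 h and the 6 d values share the naive libraries, so their likeness is not a result. The gene raised most at 1 h had 3.65, 4.22 and 2.68 CPM in naive pools 1 to 3 and 48.9, 43.4 and 49.2 CPM in the 1 h pools. At 6 d it stood at 2.12, 5.78 and 4.77 CPM in pools 1 to 3, with the lowest and the highest of the 6 values both among the 6 d pools. Its 6 d interval ran from −0.33 to 0.78.

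Single genes show how the pools were arranged. ENSRNOG00000061533 had the smallest p among genes with a higher estimate at 6 d and no overlap between groups. It was at 4.98, 6.22 and 8.90 CPM in naive pools 1 to 3 and at 10.0, 11.4 and 11.5 CPM in 6 d pools 1 to 3. All 6 d pools were higher, but naive pool 3 and 6 d pool 1 were the closest of the 2 groups. The log2 fold change was 0.72 (SE 0.18, unadjusted p = 0.000516, edgeR adjusted p = 0.999), from a mean of 6.70 ± 2.00 CPM in naive to 11.0 ± 0.812 CPM at 6 d (SD, n = 3 pools each).

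ENSRNOG00000011427 had the smallest p among genes with a lower estimate. Its values were 20.3, 21.9 and 19.0 CPM in naive pools 1 to 3 and 16.7, 12.5 and 14.3 CPM in 6 d pools 1 to 3. Again the groups did not overlap, with naive pool 3 the lowest naive value and 6 d pool 1 the highest 6 d value. Its log2 fold change was −0.49 (SE 0.12, unadjusted p = 0.000570, edgeR adjusted p = 0.999). At 1 h it was at 13.0, 13.6 and 12.1 CPM.

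ENSRNOG00000010263 turned on a single library. It was at 133.7 and 148.7 CPM in naive pools 1 and 2 and at 73.4 CPM in naive pool 3. The 6 d pools were close together, at 95.9, 92.2 and 96.8 CPM, inside the range of the naive pools. The log2 fold change was −0.32 (SE 0.15, edgeR adjusted p = 0.999), and −0.57 without naive pool 3 (edgeR adjusted p = 0.0151), where it was the only gene called. It was −0.13 without naive pool 2 and −0.11 with the no-feature share of the reads as a covariate. Its 1 h pools were all lower than the naive mean, at 69.6, 53.1 and 62.2 CPM.

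ENSRNOG00000048230 was the gene for which 6 d pool 1 stood below, and naive pool 3 above, the mates of their groups by the largest common margin. It was at 12.0, 13.2 and 21.8 CPM in naive pools 1 to 3 and at 16.1, 45.4 and 18.4 CPM in 6 d pools 1 to 3. The high value of 6 d pool 2 set most of the distance of 6 d pool 1, which lay within the naive range. Its estimate of 0.75 on the log2 scale (SE 0.30, edgeR adjusted p = 0.999) was 0.15 without 6 d pool 2. It became 1.32 without naive pool 3 and 6 d pool 1 (edgeR adjusted p = 0.00288), pools that were left out after their distance had been seen. For none of these 4 genes did the difference in 6 d change between PL and dHC pass the test. The differences, PL minus dHC, were 0.27 (SE 0.28) for ENSRNOG00000061533, −0.55 (SE 0.18) for ENSRNOG00000011427, −0.61 (SE 0.23) for ENSRNOG00000010263 and 0.26 (SE 0.62) for ENSRNOG00000048230, each with an edgeR adjusted p of 1.00 over 14784 genes, of which 0 (0%) were called and 558 had an unadjusted p under 0.05.

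**Figure D2:**
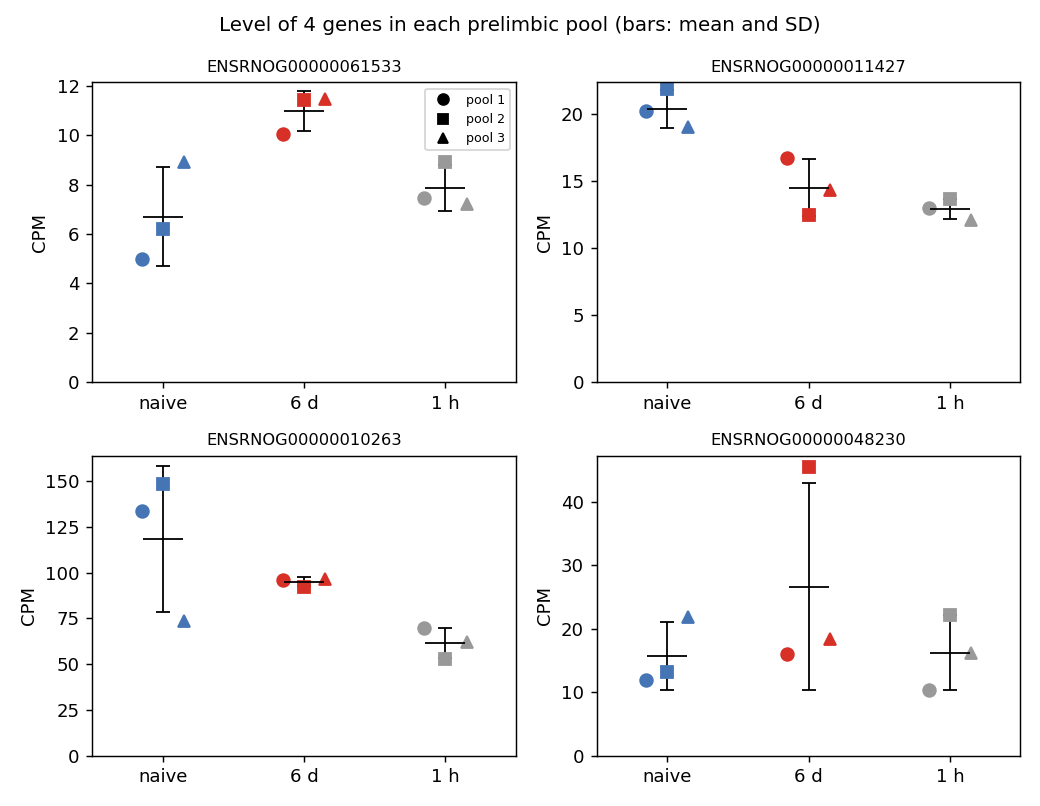
Level in CPM (y axis) of the 4 genes given by ID in each PL pool, by group (x axis), with the pool number as the symbol and the mean and SD of 3 pools as bars. In the upper panels naive pool 3 (triangle) and 6 d pool 1 (circle) are the pools closest to the other group. In the lower left panel naive pool 3 lies at 73.4 CPM, below the other naive pools.

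The arrangement of the 6 libraries did not follow their groups. Over 11405 genes of at least 5 CPM, the library nearest to 6 d pool 1 was naive pool 1, at a root mean square log2 difference of 0.174, the smallest of the 36 distances among the 9 PL libraries. The distances of 6 d pool 1 to its own mates were 0.241 and 0.219. Naive pool 3 was nearest to 6 d pool 3 at 0.180 and to 6 d pool 2 at 0.184, against 0.207 to each of its own mates. On average 6 d pool 1 lay 0.230 from its own group and 0.194 from the naive pools, and naive pool 3 lay 0.207 from its own group and 0.191 from the 6 d pools. The first principal component of the 6 libraries held 37.5% of the variance and placed 6 d pool 1 at 9.83 beside naive pools 1 and 2 at 9.52 and 5.29. It placed naive pool 3 at −5.62 beside 6 d pools 2 and 3 at −12.8 and −6.26. The labels number naive pool 3 and 6 d pool 1 as consecutive libraries, 3 and 4. They name no batch or handling order. Depth and the share of reads outside gene models divided the 6 libraries in the same way as this component. 6 d pool 1 and naive pools 1 and 2 had 9081537 to 9215695 gene counts and 11.2% to 12.2% of reads outside gene models. Naive pool 3 and 6 d pools 2 and 3 had 7463875 to 8727492 gene counts and 12.6% to 13.6%. Whether depth or library quality had a part, or whether naive pool 3 and 6 d pool 1 were exchanged, was not tested. The labels were kept as given, and the count of 0 genes called and every bound on the 6 d change hold only if they are right.

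**Figure D3:**
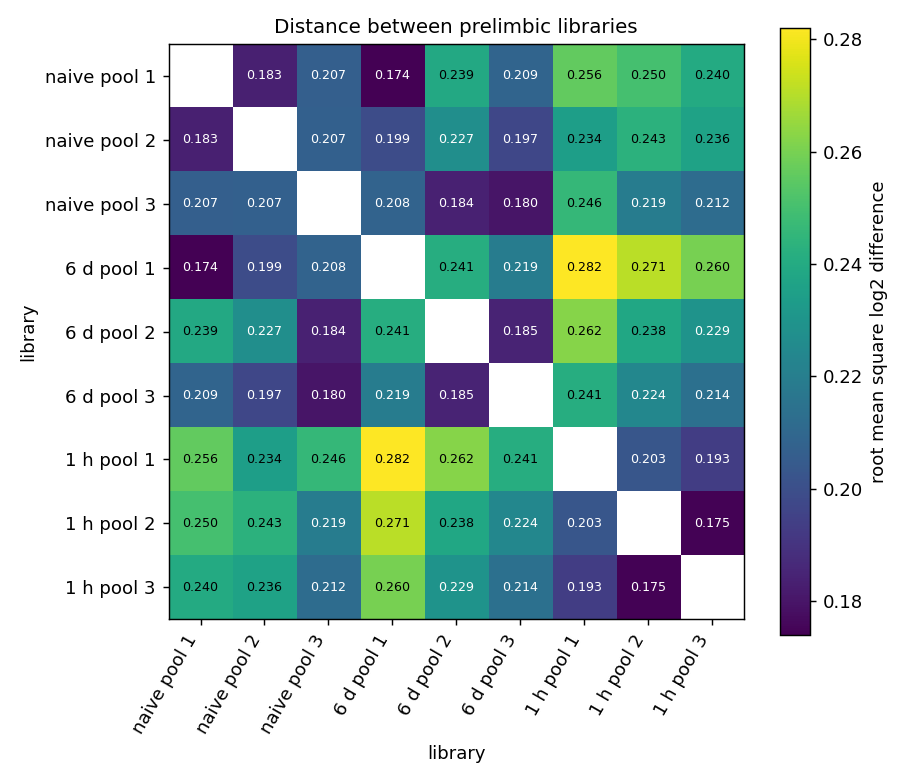
Root mean square difference in log2 CPM over 11405 genes between each pair of the 9 PL libraries (both axes, color and printed value). 6 d pool 1 is closer to the naive pools than to its own mates, and naive pool 3 is closer to 6 d pools 2 and 3 than to naive pools 1 and 2.

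These pools were known from an earlier description of the data to stand apart, so the counts that follow describe them and test nothing. Each PL library was set against the mean of the other 2 pools of its group. In 6 d pool 1, 143 of 11405 genes were past 1.5-fold (1.25%), 55 higher and 88 lower. In naive pool 3 there were 120 (1.05%), 49 higher and 71 lower. The counts were 87 (0.763%) and 63 (0.552%) in 6 d pools 2 and 3, 64 (0.561%) and 81 (0.71%) in naive pools 1 and 2, and 79 (0.693%), 68 (0.596%) and 43 (0.377%) in 1 h pools 1 to 3. The last gene counted for 6 d pool 1 stood at 0.585 on the log2 scale and the first left out at 0.584, and for naive pool 3 these were 0.586 and 0.582. The root mean square departure was 0.211 for 6 d pool 1 and 0.185 for naive pool 3, and 0.154 to 0.185 for the other 7. Counting error alone would give 0.128 to 0.134, so that it made up a large part of each library's departure. The order depended on the level of the genes. At 20 CPM or more, 27 genes were past 1.5-fold in 6 d pool 1 and 33 in naive pool 3, against 0 to 15 in the other 7 libraries. Past 2-fold there were 9 and 6, within or near the 0 to 7 of the others.

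The departures of the pools ran in opposite directions. Over the 11405 genes, the departure of 6 d pool 1 from its mates had a Pearson correlation of −0.29 with that of naive pool 3 and of 0.32 with that of naive pool 1. The departures of 6 d pool 2 gave 0.30 with naive pool 3 and −0.26 with naive pool 1. The departures within a group sum to 0, so the values for 6 d pool 2 are not independent of those for 6 d pool 1. A pair of departures shares no library, but all libraries share the scaling and the gene levels, and genes are not independent. Values nearly as large occurred with the departures of dHC pools from their own mates, so such correlations were not particular to naive and 6 d PL. They ran from −0.26 to 0.15 for 6 d pool 1 and from −0.21 to 0.22 for naive pool 3. What the pools share was not tested. Over the 7767 genes of at least 20 CPM the values for 6 d pool 1 were −0.38 with naive pool 3 and 0.48 with naive pool 1, and over the 14174 genes of at least 1 CPM they were −0.18 and 0.17. The shift was broad and small per gene. For 37.7% of the genes 6 d pool 1 and naive pool 3 departed in the same direction, while past 1.5-fold in both were only 7 genes, 4.90% of the 143 and 5.83% of the 120, and 6 of these 7 were in opposite directions. It also varied with level: genes of 100 CPM or more had a median departure of 0.05 in 6 d pool 1 and −0.03 in naive pool 3, and genes of 5 to 20 CPM −0.03 and 0.03. This was not particular to them, as 6 d pool 2 and naive pool 1 stood at −0.05 and 0.04 for genes of 100 CPM or more.

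**Figure D4:**
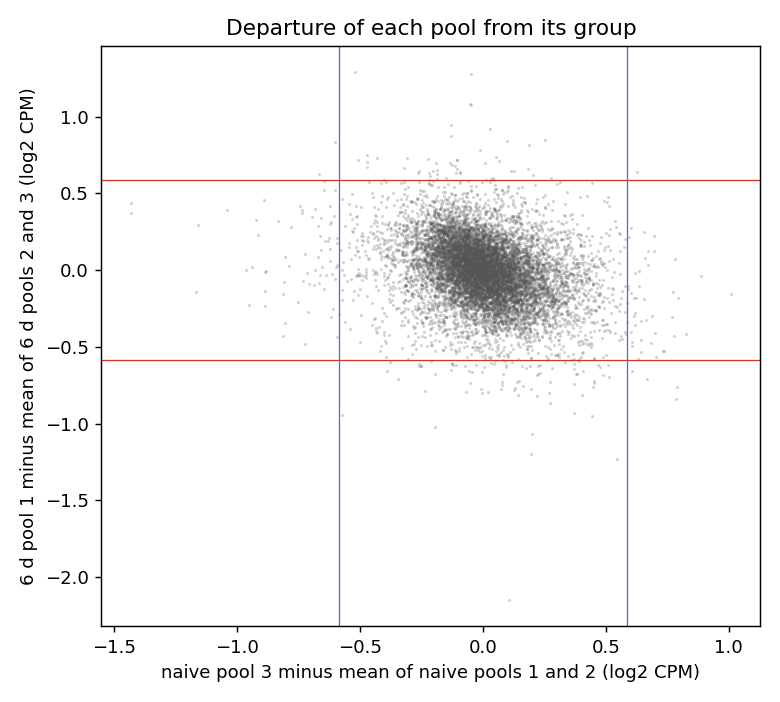
Each point is 1 of 11405 genes, placed by the departure of naive pool 3 (x axis) and of 6 d pool 1 (y axis) from the mean of their 2 group mates, in log2 CPM. Colored lines mark 1.5-fold. The cloud tilts downward (Pearson correlation −0.29), and few genes lie past 1.5-fold on both axes.

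What the parting genes shared was read from libraries that had not chosen them. For 6 d pool 1 this was the response at 1 h, fitted on the naive and 1 h pools alone. In that fit 223 of the 11405 genes were called higher (1.96%) and 291 lower (2.55%). In 6 d pool 1 the 223 genes had a median departure of −0.16, and 65.9% of them were below both mates, against 37.8% of all 11405 genes. The 291 lowered genes had a median departure of 0.21, and 236 of them (81.1%) were above both mates, against 38.6% of all genes. In 6 d pools 2 and 3 the same medians were 0.08 and 0.09 for the raised and −0.13 and −0.08 for the lowered genes. The departures of a gene in the 3 pools of a group sum to 0. The values of pools 2 and 3 are therefore tied to those of pool 1 and are not separate results. The share for raised genes depended on the libraries of the 1 h fit. It was lowest without naive pool 1, the library most like 6 d pool 1. In that fit 78 genes were called higher and 42.3% of them were below both mates, near the 37.8% of all genes. A further 61 were called lower, with 65.6% above both mates. With 1 of the other libraries left out, the share for raised genes was 51.5% to 71.8%. It was 51.5% and 58.6% without 1 h pools 2 and 3, with 99 genes called higher in each fit.

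**Figure D5:**
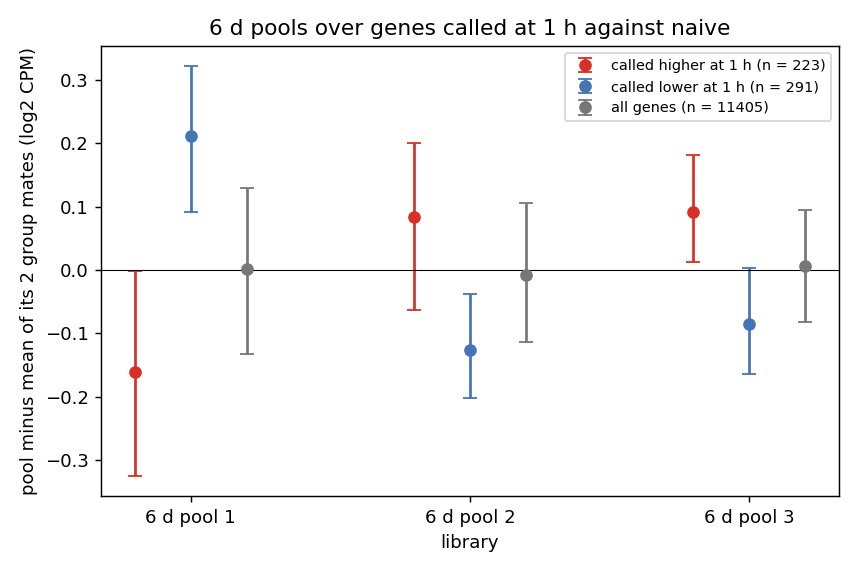
Departure of each 6 d pool from the mean of its 2 group mates in log2 CPM (y axis) over genes called higher (223) or lower (291) at 1 h against naive and over all 11405 genes. Points are medians over genes and bars the quartiles. Pool 1 lies at −0.16 for raised and 0.21 for lowered genes. The 3 departures of a gene sum to 0, so those of pools 2 and 3 are tied to that of pool 1.

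The genes with the widest departure in 6 d pool 1 had low levels, with a median over genes of 9.64 CPM for the 88 lower and 8.21 CPM for the 55 higher ones, against 36.4 CPM over all 11405. This was not particular to it, as the sets of the other 5 libraries had medians of 6.37 to 11.0 CPM. The gene most above its mates was at 19.2 CPM in 6 d pool 1, 7.48 and 7.95 CPM in 6 d pools 2 and 3 and 8.63, 13.4 and 7.44 CPM in naive pools 1 to 3. The gene most below was at 2.23 CPM in 6 d pool 1, 11.8 and 9.66 CPM in its mates and 3.98, 7.66 and 5.97 CPM in the naive pools. Among the 88 genes lower in 6 d pool 1, 9 (10.2%) were called higher at 1 h and 0 lower, and among the 55 genes higher, 3 (5.45%) were called lower and 0 higher. Over all 11405 genes 1.96% were called higher and 2.55% lower. In the sets of 6 d pools 2 and 3, 0% to 5.71% were called higher and 0% to 4.88% lower. The 88 and the 55 genes had median log2 differences between dHC and PL, dHC minus PL in the 1 h libraries, of 0.04 and 0.03. Genes more than 2-fold higher in dHC made up 11.4% and 10.9% of them, and genes more than 2-fold higher in PL 9.09% and 14.5%. Over all 11405 genes these shares were 4.04% and 4.5%. In the 6 sets of 6 d pools 2 and 3 and naive pool 1 the dHC share was 7.14% to 14.3% and the PL share 0% to 25%, so that the sets of 6 d pool 1 lay within the range of other pools.

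Genes with higher levels in dHC were frequent among those low in naive pool 3. Of the 71 genes lower in it than in its mates, 35 (49.3%) were more than 2-fold higher in dHC than in PL at 1 h, against 461 of all 11405 genes (4.04%), and the median over the 71 genes of the dHC minus PL difference was 0.99 on the log2 scale. Of the 71, 2 (2.82%) were more than 2-fold higher in PL. Of the 49 genes higher in naive pool 3, 3 (6.12%) were more than 2-fold higher in dHC and 6 (12.2%) more than 2-fold higher in PL. Their median dHC minus PL difference was −0.09. The gene most below its mates was at 8.29 CPM in naive pool 3, 21.4 and 24.2 CPM in naive pools 1 and 2, 17.5, 12.7 and 14.3 CPM in 6 d pools 1 to 3 and 13.2, 8.10 and 11.0 CPM in the 1 h pools. ENSRNOG00000010263 belonged to the same set, with a dHC minus PL difference of 1.57. In bulk tissue fewer cells of a type and less RNA per cell cannot be told apart, and whether other tissue in a punch had a part in these values was not tested.

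The set was not particular to naive pool 3. Of the 46 genes past 1.5-fold higher in naive pool 2, 24 (52.2%) were more than 2-fold higher in dHC. The 71 and the 46 genes shared 24, which is 33.8% and 52.2% of the lists, as a low value in pool 3 and a high value in pool 2 both widen each departure. The 35 genes had summed levels of 5935, 7360 and 3868 CPM in naive pools 1 to 3, 4943, 4767 and 5854 CPM in 6 d pools 1 to 3 and 4364, 3116 and 3851 CPM in 1 h pools 1 to 3. The choice of these genes fixed the low sum of naive pool 3 against its mates. The PL 1 h pools also took part in the choice through the regional difference, which favors genes low in them. Genes chosen for a low value in 1 library tend to be higher in others, so the 6 d sums are not free of the choice either. The 6 d pools all lay above naive pool 3, and the 1 h pools lay around it. Over all 461 genes higher in dHC, which were not chosen on these libraries, the summed level was 27660, 29179 and 24994 CPM in the naive pools and 26371, 24976 and 26934 CPM in the 6 d pools. Of the 71 genes, 14 (19.7%) were called lower at 1 h than at 6 d in a fit without the naive pools, against 1.34% of all genes, and 0 were called higher, against 1.08% of all genes.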

How the data were processed

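RNA sequencing was done on pools of PL and dHC tissue punched from frozen brain. Per the labels' protocols, a stranded mRNA kit was used on 200 ng of RNA, amplification took 12 PCR cycles, and both ends were sequenced to 150 nt. The deposited values are raw counts of reads per Ensembl gene, with 32662 genes in each library's table. A further 5 rows held reads given to no gene and were left out of totals and tests. In the 6 libraries, 42.0% to 48.4% of all reads recorded were not aligned. A further 11.2% to 13.6% lay outside gene models, and 6.28% to 7.05% had an alignment that was not unique. Rnor_6.0, DESeq2, bedtools 2.17.0 and Picard 1.126 appear in the submitters' processing notes without a stated use. Which aligner, counter and strand setting were used is not given in the sources used here, so overlapping, antisense and near-identical genes are uncertain. PCR copies were not told apart, and 3 counts, the limit that a count of 0 allows, were worth 0.326 to 0.402 CPM in PL, for counting error only.

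Counts were tested in R 4.3.3 with edgeR 4.0.16 (TMM factors, filterByExpr by group, quasi-likelihood F test, two-sided, Benjamini-Hochberg adjustment over all genes tested), on the 9 PL libraries with a mean per group. Standard errors are the log2 fold change divided by the square root of F, and intervals are at 95%. The difference in 6 d change between PL and dHC was fitted on all 18 libraries. Departures of a pool used log2 CPM with a prior count of 2, for genes of at least 5 CPM on average over the 6 libraries, and the regional reference was the mean log2 CPM of dHC minus PL at 1 h. DESeq2 1.42.0 and limma 3.58.1 were alternatives. The procedure was tested on simulated data. The simulation drew the counts of each gene independently and held no shift shared across a library. It therefore does not show how calls and intervals behave under the broad shift seen here. Members, gene lists and tests were chosen with earlier results of these data known. The 33 gene lists, 16 of them of cell types, were not tested for want of names. The rule for named genes took the smallest unadjusted p in each direction without overlap and at least 1 CPM in the higher group, a gene called in an alternative with at most 5 calls, and the gene for which both pools part most, limited to 2 IDs in each direction. Which of these candidates was given an ID was settled after their values were seen.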

Additional observations from a re-analysis of the deposited data

How the results depend on the processing

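The count of 0 genes called was kept with DESeq2 size factors in edgeR, DESeq2, limma voom with and without sample weights, only 6 or all 18 libraries, the no-feature share as covariate and the replicate block. With no filter for low counts it became 8, and it was 0 to 1 with each library left out, the 1 gene without naive pool 3. The 8 were not mainly genes that the filter had removed. Of them 7 had also been tested with the filter, and their median was 1379.5 counts summed over the 6 libraries, taken over all 8. The smallest edgeR adjusted p was 4.92e-57 without a filter, against 0.999 with it. The number at an unadjusted p under 0.05 was 343 to 1565 with each library left out, highest without 6 d pool 1, with 922 without naive pool 3. It was 798 without a filter, 218 with DESeq2, 1204 with sample weights and 594 with the replicate block. Leaving out both 6 d pool 1 and naive pool 3, chosen after seeing the data because each lay near the other group, gave 378 called, 2215 at an unadjusted p under 0.05, and 87.1% and 62.9% of intervals inside 1 and 0.5. Removing pools for that reason widens the gap by construction. The shares inside 1 and 0.5 were 89.3% to 92.2% and 66.9% to 72.4% with each library left out, 65.0% and 52.1% without a filter, 90.7% and 70.8% with 18 libraries and 91.0% and 69.7% with the covariate. With only 6 libraries 94.5% lay inside 1. Of the same-numbered pools only the pools numbered 1 deviated together (correlations 0.32, −0.07 and 0.04 for numbers 1 to 3), so the replicate numbers were not taken to pair the samples. The test of the difference in 6 d change between PL and dHC called 12 genes without a filter. It called 0 in the other alternatives, the replicate block included.

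Genes past 1.5-fold in 6 d pool 1 and naive pool 3 numbered 673 and 625 at 1 CPM or more (502 to 587 in the other 7 libraries), 27 and 33 at 20 CPM or more, and 9 and 6 past 2-fold. The share of genes raised at 1 h that lay below both mates in 6 d pool 1 was 42.3% to 71.8% with each library of the 1 h fit left out. The share of lowered genes above both mates was 65.6% to 83.7%, and 72.9% with library totals in place of TMM. Of genes lower in naive pool 3, 88.0% of the 25 at 20 CPM or more were 2-fold higher in dHC. The last 3 results and their alternatives were chosen after seeing the data. The log2 fold changes of the 4 genes given by ID kept their direction in all 19 alternatives. ENSRNOG00000061533, ENSRNOG00000010263 and ENSRNOG00000048230 passed without a filter (edgeR adjusted p = 0.0422, 0.0327 and 5.57e-06), and all 4 without both pools. Without a filter the log2 fold changes of these 3 were 0.72, −0.33 and 0.75, close to 0.72, −0.32 and 0.75 in the main fit. Their passing therefore did not come with a clearly larger difference. Depth limited the bounds below 5 CPM. Marker list levels and list members were not run for want of names.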
